A study of Mus musculus with 12 samples.

Results

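The genes described here are those of the constitutive proteasome and its regulators, taken by their symbols (Psma, Psmb, Psmc, Psmd, Psme and Psmf followed by a digit), without the interferon-inducible catalytic subunits Psmb8, Psmb9 and Psmb10. The rule found 50 probe sets with a single such symbol, for 39 genes among 8251 distinct single symbols of 12422 probe sets. Each gene was represented by the probe set of highest mean intensity over the arrays, and 7 genes had more than 1 probe set. The 39 genes were 7 alpha and 7 beta subunits of the 20S core, 9 subunits of the base and 8 of the lid of the 19S regulatory particle, 3 chaperones of 19S assembly, 3 activators, and 2 genes named after a partner protein (Psmc3ip and Psme3ip1), which the symbol pattern takes but which encode no subunit. A probe set was tested when its intensity exceeded a detection floor of 91.37 on at least 2 of the 12 arrays, as 6159 of all probe sets did. Of the 39 genes, 36 passed and 30 were above the floor on all 12 arrays. The 3 that did not pass were above the floor on 0 arrays: Psmd2, a scaffold subunit of the 19S base, with intensities of -9.7 to 45.8, Psmd10, the assembly chaperone also called gankyrin, with -55.6 to 30.2, and Psmc3ip, a meiotic recombination factor, with -29.8 to 13.1. Both probe sets of Psme2 carry several symbols, and Psme2, Psma8, Psmb11 and Psmf1 were not analysed here.

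The arrays measured RNA of dendritic cells of the mouse spleen with high CD11c, separated by sorting into CD4+, CD8+ and CD4- CD8- (DN) subsets. Each subset was processed either directly at isolation, here called fresh, or after 2 h in tissue culture medium at 37 °C, here called cultured, with 2 arrays for each of the 6 groups. The sources used here give no strain, sex or age of the mice, number of mice pooled or composition of the medium, and no genetic change or added agent is named for any group. Cultured cells had been sorted and incubated, with no cells incubated under another condition, so time, medium, temperature and loss of tissue contact cannot be told apart. The labels number the arrays of each group by experiment and do not say that these came from separate animals, so p-values reflect how far these arrays scatter, which may be technical scatter. 1 label of fresh CD8+ replicate 1 calls its cells CD4 positive. The array's Cd8a intensity was 1210.4 and its Cd4 intensity 92.0, and it was used as CD8+.

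The proteasome is the protease of the cytosol and nucleus that degrades proteins tagged with ubiquitin. Its barrel-shaped 20S core has outer rings of alpha subunits, which gate the entrance, and inner rings of beta subunits, of which Psmb5, Psmb6 and Psmb7 carry the active sites. The 19S particle caps the core: its base holds a ring of ATPases that unfold and thread the substrate, and its lid removes the ubiquitin chain. In dendritic cells the peptides it makes are loaded on MHC class I, and Psmb8, Psmb9 and Psmb10 can take the places of Psmb5, Psmb6 and Psmb7 in the immunoproteasome. When the proteasome is overloaded, the transcription factor NRF1 (Nfe2l1) induces subunit genes through antioxidant-response-type elements in their promoters, and NRF2 (Nfe2l2) binds elements of the same kind.

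Because these promoters are the known meeting point of that regulation, the windows of 250 bases before each annotated start were searched for the core of the antioxidant response element, TGACNNNGC, and for CCAAT, the box bound by NF-Y, on both strands. RefSeq (GRCm38.p6) held 36 windows for 33 of the 39 genes. TGACNNNGC was present in 5 of the 36 windows (13.9%) and in 10.2% of all 32851 windows of that length, and the 5 genes were Psmb5, Psmb6, Psmc6, Psmd9 and Psmd12. CCAAT was present in 14 of the 36 windows (38.9%) and in 33.8% of all windows. The shares of the proteasome genes lay near those of all promoters. Shown are the 4 matching promoters whose genes had the lowest p-values after culture, read 5′ to 3′ on the gene's own strand, with the motif in capitals. Psmc1 (chr12:100109952-100110201, + strand) has CCAAT 175 bases before the start, Psmc2 (chr5:21785025-21785274, + strand, 1 of its 2 windows) has it 28 bases before the start, Psmd9 (chr5:123227940-123228189, + strand) has TGACCCCGC 31 bases before the start, and Psme3 (chr11:101315963-101316212, + strand) has ATTGG, which is CCAAT on the other strand, 14 bases before the start. A match is a string of letters and does not show that a factor binds there.
Psmc1: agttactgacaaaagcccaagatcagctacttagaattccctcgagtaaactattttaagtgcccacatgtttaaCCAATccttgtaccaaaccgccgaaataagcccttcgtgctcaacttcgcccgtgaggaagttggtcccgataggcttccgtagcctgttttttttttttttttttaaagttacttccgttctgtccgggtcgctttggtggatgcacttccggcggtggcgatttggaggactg
Psmc2: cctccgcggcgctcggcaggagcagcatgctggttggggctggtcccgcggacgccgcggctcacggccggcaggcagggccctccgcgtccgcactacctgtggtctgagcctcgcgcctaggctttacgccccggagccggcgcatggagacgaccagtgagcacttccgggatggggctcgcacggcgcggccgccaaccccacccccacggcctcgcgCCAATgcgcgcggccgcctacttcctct
Psmd9: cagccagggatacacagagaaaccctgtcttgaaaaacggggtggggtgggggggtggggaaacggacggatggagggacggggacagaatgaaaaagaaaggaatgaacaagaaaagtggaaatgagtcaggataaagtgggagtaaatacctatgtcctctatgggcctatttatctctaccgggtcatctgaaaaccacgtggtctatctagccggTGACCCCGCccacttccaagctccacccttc
Psme3: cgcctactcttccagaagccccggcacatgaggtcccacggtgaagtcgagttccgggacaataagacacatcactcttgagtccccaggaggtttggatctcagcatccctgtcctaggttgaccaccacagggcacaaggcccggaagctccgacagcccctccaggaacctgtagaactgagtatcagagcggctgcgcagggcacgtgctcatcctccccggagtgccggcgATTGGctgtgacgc

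With all 12 arrays and no block in the fit, few of these genes passed the test after culture, and those that did were higher. More passed in a fit without 3 of the arrays, described below. Averaged over the 3 subsets, 5 of the 36 tested genes (13.9%) rose after 2 h, namely the lid subunits Psmd11 and Psmd7, the beta subunit Psmb1 and the base ATPases Psmc1 and Psmc2, and 0 fell (limma over all 12 arrays with 1 mean per group, Benjamini-Hochberg adjusted over 6159 probe sets, called at an adjusted p under 0.05). The background was higher: 39.3% of all tested probe sets were called, 17.0% as higher and 22.3% as lower. At an unadjusted p under 0.05 by limma there were 11 of the 36 proteasome genes, against 49.6% of all tested probe sets. With the experiment number, which pairs the arrays, as a block in the fit, 7 of the 36 genes were called, 6 as higher and 1 as lower, against 47.9% of all: the same 5, Psmd9 as higher (adjusted p 0.0175) and the activator Psme3 as lower (adjusted p 0.0141 by limma). Differences are on a generalised log2 scale that stays defined below 0, always cultured minus fresh or first minus second group. The median difference of the 36 genes was 0.21, with 29 above 0 and 7 below, where all tested probe sets had a median of -0.02 and 49.3% above 0. The fitted difference was past 2-fold for 2 of the 36 genes, Psmb1 upward and Psme3 downward, against 25.4% of all, but Psme3 was below the floor on every cultured array, so its fitted value is no measured fold. Psme3 also passed the filter through fresh arrays alone, which favours a fall. For 23 of the 36 genes the 95% interval of the mean culture effect lay within 2-fold in either direction. For 2 genes, Psmd11 and Psmb1, all 6 cultured arrays lay above all 6 fresh arrays, which held for 7.68% of all probe sets. For 0 genes did all cultured arrays lie below all fresh arrays, against 10.1% of all. In bulk RNA of a sorted population, fewer cells of a type and less RNA per cell cannot be told apart.

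3 arrays stand apart by their Gapdh ratio, the signal of the 3′ over that of the 5′ control probe set of Gapdh, which climbs as RNA degrades. It was 2.55 on fresh CD8+ replicate 1, 1.97 on cultured CD4+ replicate 1 and 1.34 on cultured DN replicate 1, and 0.89 to 1.04 on the other 9. Without these 3 arrays, which leaves 1 array each in fresh CD8+, cultured CD4+ and cultured DN cells, so that the lone arrays are assumed to vary like those of the other groups, the mean culture effect was called for 13 of the 36 genes (36.1%, against 42.9% of all probe sets). The 12 that then rose were Psma2, Psma3, Psma4, Psma6, Psmb1, Psmb6, Psmb7, Psmc1, Psmc2, Psmc6, Psmd7 and Psmd11, and the 1 that fell was Psmc4. All 5 genes called with every array were among the 12. The actin controls, read in the same way, did not single out the 3 arrays left out. Fresh CD8+ replicate 1 had an actin value of 0.91, cultured DN replicate 1 had 0.92 and cultured CD4+ replicate 1 had 1.16. The highest actin value, 1.28, belonged to cultured CD4+ replicate 2, which was kept. The part of RNA integrity in the culture differences was not tested. Of markers of other cells, the 4 measured T cell genes were below the floor on both arrays of every group, with a summed intensity of 0.0 to 47.0. The 5 dendritic cell markers were above the floor in every group, with sums of 15739.0 to 24789.4 on fresh arrays and 29129.1 to 43516.8 on cultured ones. Single markers went both ways with culture: the MHC class II genes Cd74 (1.14 ± 0.20, SE) and H2-Ab1 (1.04 ± 0.17) rose, which carries the sums, Flt3 (-1.0 ± 0.17, adjusted p 0.00106) and Itgax (-0.86 ± 0.23) fell, and Zbtb46 was at -0.02 ± 0.23 (limma, adjusted p of Cd74, H2-Ab1, Itgax and Zbtb46 0.00137, 0.000732, 0.0140 and 0.954). The 5 macrophage markers summed to 2983.8 to 3047.1 on the fresh CD4+ arrays, 859.0 to 2267.9 on those of CD8+ and DN cells and 679.8 to 1658.8 after culture. The group means of Adgre1, C1qa and C1qc were lower after culture in each subset, and those of C1qb and Cd68 were not. The 4 measured B cell markers summed to 454.6 to 1117.1 on fresh and 463.5 to 1124.3 on cultured arrays. These sums join opposite moves: in CD4+ cells the mean of Blk was 191.45 fresh and 473.55 cultured, that of Cd79b 234.5 and 112.15. Blk was higher and Cd79b lower after culture in each subset, and Cd79a and Ms4a1 went either way by subset. The 4 neutrophil markers summed to 49.5 to 476.0 and the 3 plasma cell markers to 55.6 to 513.3, each highest on a cultured CD4+ array. Of the plasma cell markers, Prdm1 was higher after culture in each subset (means of 18.75 fresh and 180.75 cultured in CD4+ cells), and Jchain and Sdc1 went either way by subset. The highest sum of the 2 measured red cell markers was 2511.8, on a cultured CD4+ array. The part of these cells in the culture effect was not tested.

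**Figure D1:**
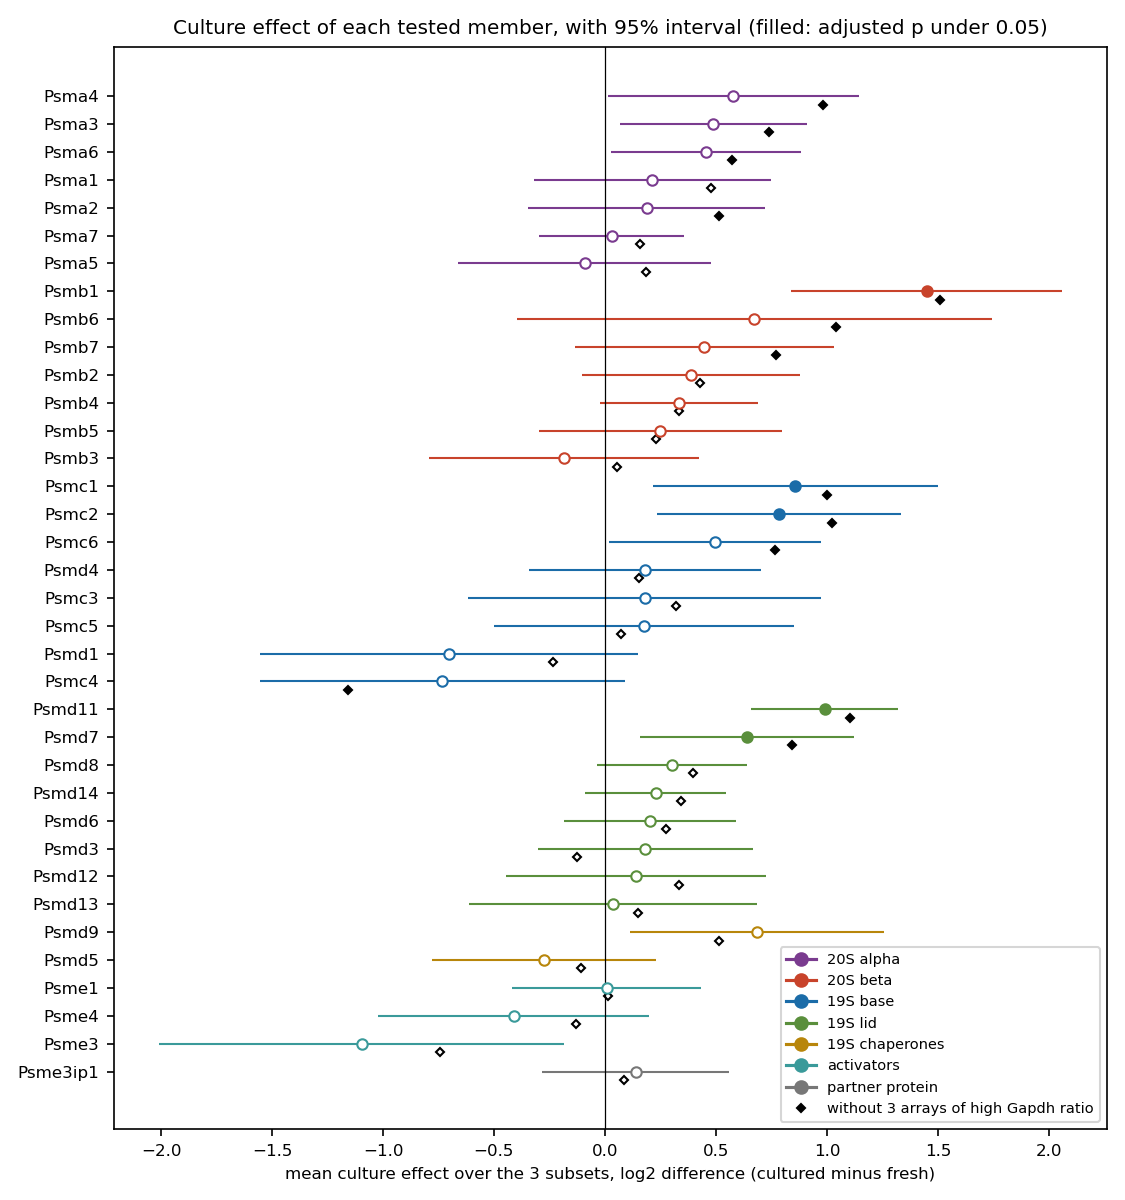
Mean culture effect of each tested gene over the 3 subsets (x axis, log2 difference, cultured minus fresh), ordered by class, with its 95% interval; filled circles mark an adjusted p under 0.05, and diamonds give the same effect without the 3 arrays of high Gapdh ratio, filled where called. 29 of the 36 circles lie to the right of 0 and 5 are filled, at 0.64 to 1.45.

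Among the 7 alpha subunits of the 20S core, which form the rings that gate the entrance, 0 were called for the mean culture effect and 3 had an unadjusted p under 0.05 (limma). Among all tested probe sets these shares were 39.3% and 49.6%. The differences of the alpha subunits ran from -0.09 for Psma5 to 0.58 for Psma4, with 6 of 7 above 0 and a median of 0.21. Psma3, 1 of the 7, had fresh intensities of 1111.9 and 1291.6 in CD4+, 2838.2 and 1416.2 in CD8+ and 1281.7 and 1580.5 in DN cells. Its cultured intensities were 1899.8 and 2488.9 in CD4+, 1991.9 and 2687.1 in CD8+ and 1816.0 and 1943.5 in DN cells. The cultured arrays all lay above the fresh ones but for fresh CD8+ replicate 1, the highest of all 12. The difference of Psma3 was 0.49 ± 0.19 (SE, 2 arrays per group) with an adjusted p of 0.0636 by limma, and 0.66 with an adjusted p of 0.00862 without fresh CD8+ replicate 1.

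Psma6 repeated this pattern. It was at 437.2 and 554.3 in fresh CD4+, 1120.2 and 538.8 in fresh CD8+ and 575.3 and 687.8 in fresh DN cells. After culture it was at 947.9 and 933.9 in CD4+, 738.6 and 704.9 in CD8+ and 1018.0 and 819.2 in DN cells. All cultured arrays exceeded all fresh arrays except fresh CD8+ replicate 1, which exceeded every cultured one. The difference was 0.45 ± 0.19 (SE) with an adjusted p of 0.0840 by limma, and 0.63 with an adjusted p of 0.00955 without that array. Psma4 had the largest difference of the class, 0.58 ± 0.26 (SE, adjusted p 0.0950 by limma), over intensities of 239.1 to 975.4. Psma1, Psma2 and Psma7 lay at 0.21, 0.19 and 0.03.

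The alpha subunits stood highest on that same fresh CD8+ array. Expressed as the deviation of each gene from its own mean over the 12 arrays, the median of the 7 was 0.67 on fresh CD8+ replicate 1 and -0.30 on replicate 2. Fresh CD4+ cells had medians of -0.73 and -0.47, the lowest of any group. Set against fresh CD4+ cells, which asks what sets the subsets apart before culture, fresh CD8+ cells had 7 of 7 alpha subunits with a difference above 0 (0.56 to 1.13, median 0.74). 4 of them, Psma1, Psma2, Psma3 and Psma4, had an unadjusted p under 0.05 by limma, against 11.1% of all probe sets. As calls there were 0 (limma, lowest adjusted p 0.338), against 1.98% of all.

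Of the 7 beta subunits, which form the inner rings, 1 rose after culture and 6 had a difference above 0 (median 0.39, range -0.18 to 1.45). Psmb1, a structural beta subunit without an active site, was at 1157.0 and 746.4 in fresh CD4+, 1740.2 and 622.2 in fresh CD8+ and 1205.3 and 785.0 in fresh DN cells. It reached 4907.5 and 2327.8 in cultured CD4+, 2102.0 and 1998.4 in cultured CD8+ and 2800.0 and 2735.3 in cultured DN cells. All cultured values exceeded all fresh values, and the widest replicate gaps were in cultured CD4+ and fresh CD8+ cells. The mean culture effect was 1.45 ± 0.28 on the log2 scale (SE, higher in 3 of 3 subsets, adjusted p 0.00216 by limma). A second Psmb1 probe set, also above the floor on all 12 arrays, did not follow. It had 1152.0 and 1233.3 in fresh CD4+, 1159.6 and 1598.9 in fresh CD8+ and 1155.0 and 803.6 in fresh DN cells, and 440.2 and 939.7, 1171.3 and 1429.0, and 846.3 and 926.5 after culture in the same order. Its mean culture effect was -0.36 ± 0.21 (SE, adjusted p 0.181 by limma), opposite in sign to that of the brighter set. With the mean of all Psmb1 probe sets, the effect was 0.47 with an adjusted p of 0.0587, so the Psmb1 call rests on 1 of its probe sets.

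Psmb4, another structural beta subunit, had the next lowest p of the class. Its fresh intensities were 1113.0 and 1242.4 in CD4+, 1572.9 and 1610.2 in CD8+ and 1203.0 and 1820.6 in DN cells, and its cultured ones were 1953.7 and 1528.5, 1769.1 and 2231.7, and 1405.8 and 1843.7. The groups overlapped, and the difference was 0.33 ± 0.16 (SE, adjusted p 0.123 by limma). The other 2 Psmb4 probe sets were above the floor on at most 1 array, and a mean over the 3 sets turned the sign, to -0.21. The subunits with active sites had differences of 0.25 ± 0.25 for Psmb5 (chymotrypsin-like activity), 0.67 ± 0.49 for Psmb6 (caspase-like) and 0.45 ± 0.27 for Psmb7 (trypsin-like), none of them called. For Psmb6 the 95% interval ran from -0.40 to 1.74, so a change of 2-fold or more lies within it.

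**Figure D2:**
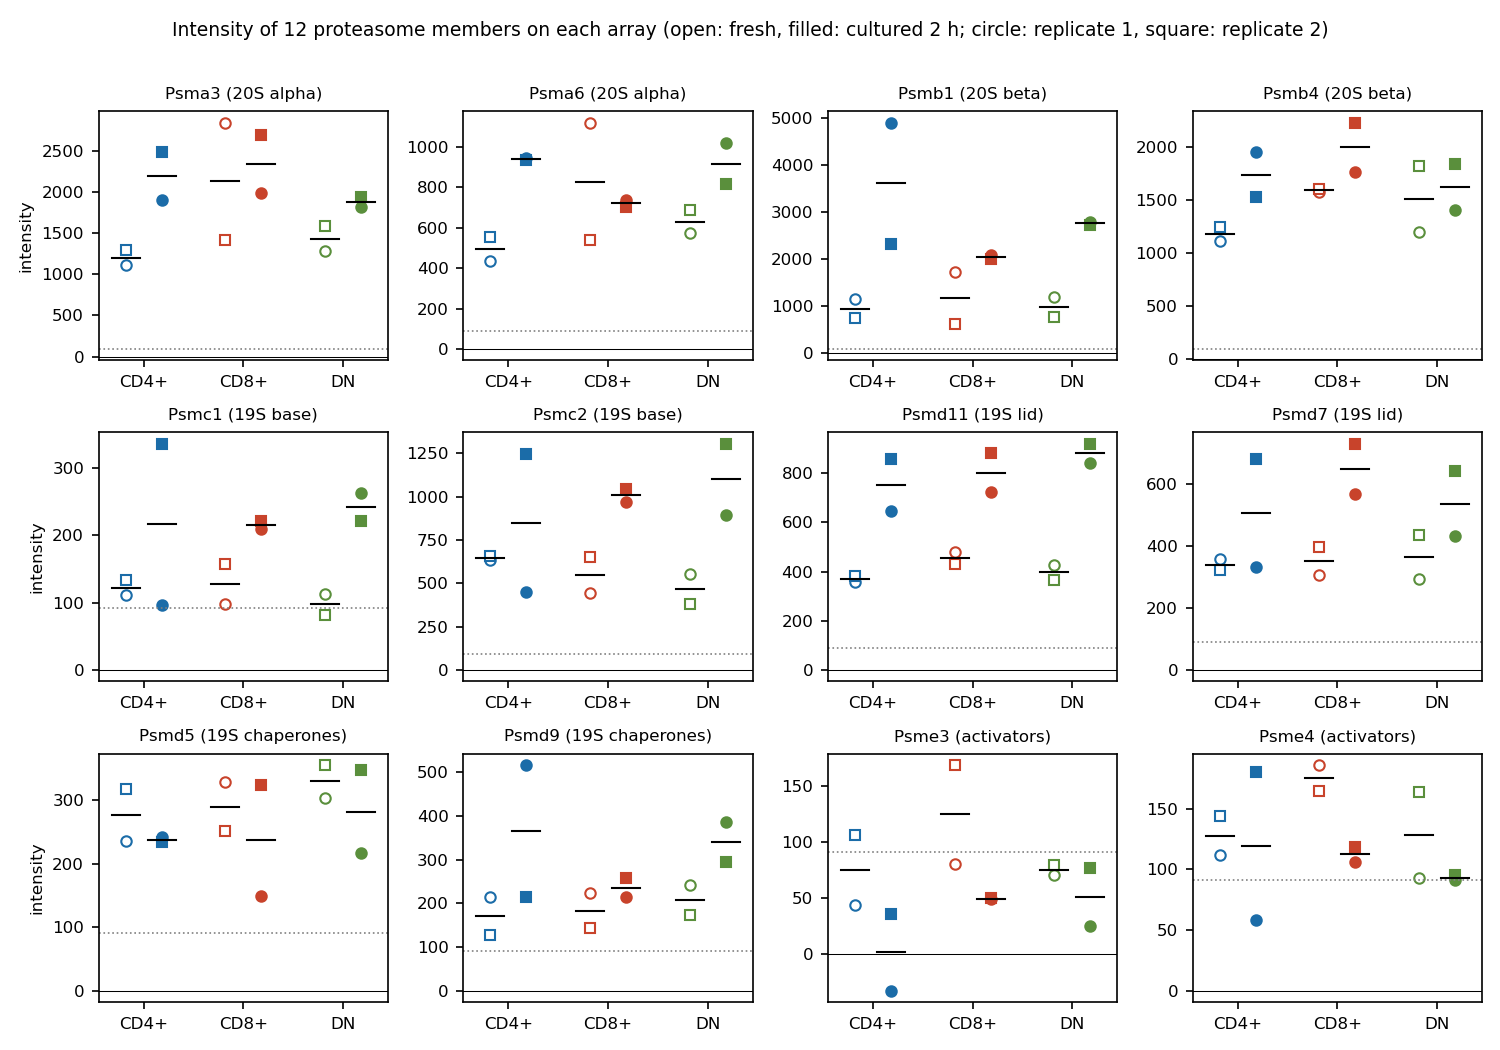
Intensity of 12 genes on each array (y axis, linear Average Difference units; x axis, subset), with open symbols for fresh and filled symbols for cultured cells, circles for replicate 1, squares for replicate 2, a line at each group mean and the detection floor of 91.37 dotted. Psmd11 and Psmb1 are the panels in which every filled symbol lies above every open one.

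In the 19S base, 2 of the 8 tested subunits rose after culture and 0 fell, with a median difference of 0.18 and a range of -0.73 to 0.86. Psmc2, an ATPase of the ring that unfolds substrates, was at 633.3 and 657.9 in fresh CD4+, 444.9 and 652.9 in fresh CD8+ and 551.3 and 382.5 in fresh DN cells. Cultured cells had 450.7 and 1247.6 in CD4+, 970.6 and 1042.8 in CD8+ and 896.5 and 1304.0 in DN cells. Of the cultured arrays, 5 lay above every fresh array, and cultured CD4+ replicate 1 lay among the fresh ones. The difference was 0.78 ± 0.25 (SE, higher in 3 of 3 subsets, adjusted p 0.0296 by limma), and its adjusted p was 0.0618 to 0.0870 in 7 of the 12 fits that left out 1 array.

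Psmc1, a second ATPase of the ring, was near the floor in fresh cells. It was at 111.3 and 133.1 in CD4+, 98.2 and 156.9 in CD8+ and 112.5 and 82.2 in DN cells, against 96.3 and 335.3, 209.1 and 221.2, and 262.5 and 221.2 after culture. Again all cultured arrays but CD4+ replicate 1 lay above all fresh ones. The difference was 0.86 ± 0.29 (SE, higher in 3 of 3 subsets, adjusted p 0.0379 by limma), with an adjusted p of 0.0542 to 0.0988 in the 9 of 12 fits without 1 array in which the call was lost. Such dim intensities understate a change on this scale.

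The other base subunits were not called. Psmc6 lay at 0.50 ± 0.22 (adjusted p 0.0896 by limma), Psmc3, Psmc5 and the ubiquitin receptor Psmd4 at 0.18 each. Psmc4, also an ATPase of the ring, had a difference of -0.73 ± 0.38 (SE, adjusted p 0.138 by limma), below 0 in 3 of 3 subsets and over intensities of 28.4 to 221.7. Without the 3 arrays of high Gapdh ratio its difference was -1.16 with an adjusted p of 0.00561, so it was the gene of the ATPase ring called as lower there while Psmc1, Psmc2 and Psmc6 were called as higher. Psmd1, a scaffold subunit, was at 45.7 and 53.7 in fresh CD4+, 442.6 and 122.1 in fresh CD8+ and 32.3 and 99.4 in fresh DN cells. After culture it was at -48.0 and -2.5 in CD4+, 101.5 and 62.3 in CD8+ and 195.6 and 161.7 in DN cells. Values below 0 inflate its log2 differences. Its difference between cultured DN and cultured CD4+ cells was fitted as 3.69, where the floor allows a statement of at least 1.87-fold (adjusted p 0.374 by limma).

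In the lid, all 8 tested subunits had a difference above 0, from 0.04 for Psmd13 to 0.99 for Psmd11 (median 0.22), and 2 of them were called as higher. Without the 3 arrays of high Gapdh ratio 7 of the 8 were above 0, Psmd3 being the exception. Psmd11, a scaffold subunit that clamps the lid to the core and the base, was at 356.2 and 379.9 in fresh CD4+, 478.2 and 431.0 in fresh CD8+ and 428.2 and 366.8 in fresh DN cells. In cultured cells it was at 646.5 and 855.4 in CD4+, 723.8 and 879.3 in CD8+ and 842.0 and 918.3 in DN cells. The lowest cultured value exceeded the highest fresh value, 478.2, and replicates lay close to each other. The difference was 0.99 ± 0.15 (SE, higher in 3 of 3 subsets, adjusted p 0.000560 by limma), with a 95% interval of 0.66 to 1.32. A second Psmd11 probe set above the floor on all 12 arrays also rose. It had 225.5 and 263.9, 240.7 and 315.6, and 215.5 and 176.1 in fresh CD4+, CD8+ and DN cells and 248.6 and 831.4, 573.0 and 528.0, and 615.3 and 444.2 after culture. Its difference was 1.10 ± 0.27 (SE, adjusted p 0.00876 by limma), with cultured CD4+ replicate 1 alone among the fresh values.

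Psmd7, which pairs with the deubiquitinase Psmd14 in the lid, was at 357.2 and 320.8 in fresh CD4+, 306.9 and 396.1 in fresh CD8+ and 293.5 and 433.7 in fresh DN cells. Cultured values were 331.9 and 679.2 in CD4+, 568.5 and 728.5 in CD8+ and 432.6 and 639.6 in DN cells. The ranges overlapped through replicate 1 of cultured CD4+ and of cultured DN cells, both arrays of high Gapdh ratio. The difference was 0.64 ± 0.22 (SE, higher in 3 of 3 subsets, adjusted p 0.0392 by limma), and the call was lost in 8 of the 12 fits without 1 array (adjusted p 0.0602 to 0.101). Psmd14 itself lay at 0.23 ± 0.14, and Psmd8, Psmd6, Psmd3 and Psmd12 at 0.30, 0.20, 0.18 and 0.14, none of them called.

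The 2 tested chaperones of 19S assembly differed in sign. Psmd9, which escorts ATPases into the base, was at 214.0 and 128.9 in fresh CD4+, 223.3 and 144.1 in fresh CD8+ and 242.5 and 173.0 in fresh DN cells, and at 516.0 and 214.1, 213.6 and 257.9, and 384.8 and 293.3 after culture. Fresh and cultured ranges overlapped, and the highest value was that of cultured CD4+ replicate 1. The difference was 0.69 ± 0.26 (SE, higher in 3 of 3 subsets, adjusted p 0.0562 by limma, called with the block given above). Psmd5, which holds another set of ATPases, was at 236.3 and 316.7, 327.9 and 251.5, and 303.2 and 355.2 in fresh CD4+, CD8+ and DN cells and at 241.3 and 234.6, 149.8 and 323.5, and 216.2 and 347.4 after culture. Its difference was -0.28 ± 0.23 (SE, below 0 in 3 of 3 subsets, adjusted p 0.353 by limma), within the spread of its replicates.

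The activators, which replace the 19S cap at the ends of the core, gave no call without the block, and 2 of the 3 had a difference below 0. Psme3, the nuclear PA28 gamma, was dim, at 43.5 and 105.8 in fresh CD4+, 80.4 and 168.7 in fresh CD8+ and 70.3 and 79.2 in fresh DN cells and at -32.8 and 36.0, 49.2 and 49.7, and 25.2 and 76.5 after culture. It was above the floor on 2 fresh and 0 cultured arrays, so no fold is given. Having passed the filter through fresh arrays alone, which favours a fall, its p-values are no independent support for one. The fitted difference was -1.10 ± 0.41 (SE, below 0 in 3 of 3 subsets, adjusted p 0.0560 by limma, called as lower with the block given above). Psme4, which encodes PA200, was at 111.6 and 143.9, 185.9 and 164.3, and 93.1 and 163.5 in fresh CD4+, CD8+ and DN cells and at 58.2 and 180.3, 105.8 and 118.7, and 91.5 and 95.1 after culture. The groups overlapped, with a difference of -0.41 ± 0.28 (SE, adjusted p 0.253 by limma). Psme1, the interferon-inducible PA28 alpha, had a mean culture effect of 0.01 ± 0.19 (95% interval -0.42 to 0.43) over intensities of 972.0 to 3239.5. The partner protein Psme3ip1, which binds PA28 gamma, lay at 0.14 ± 0.19.

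**Figure D3:**
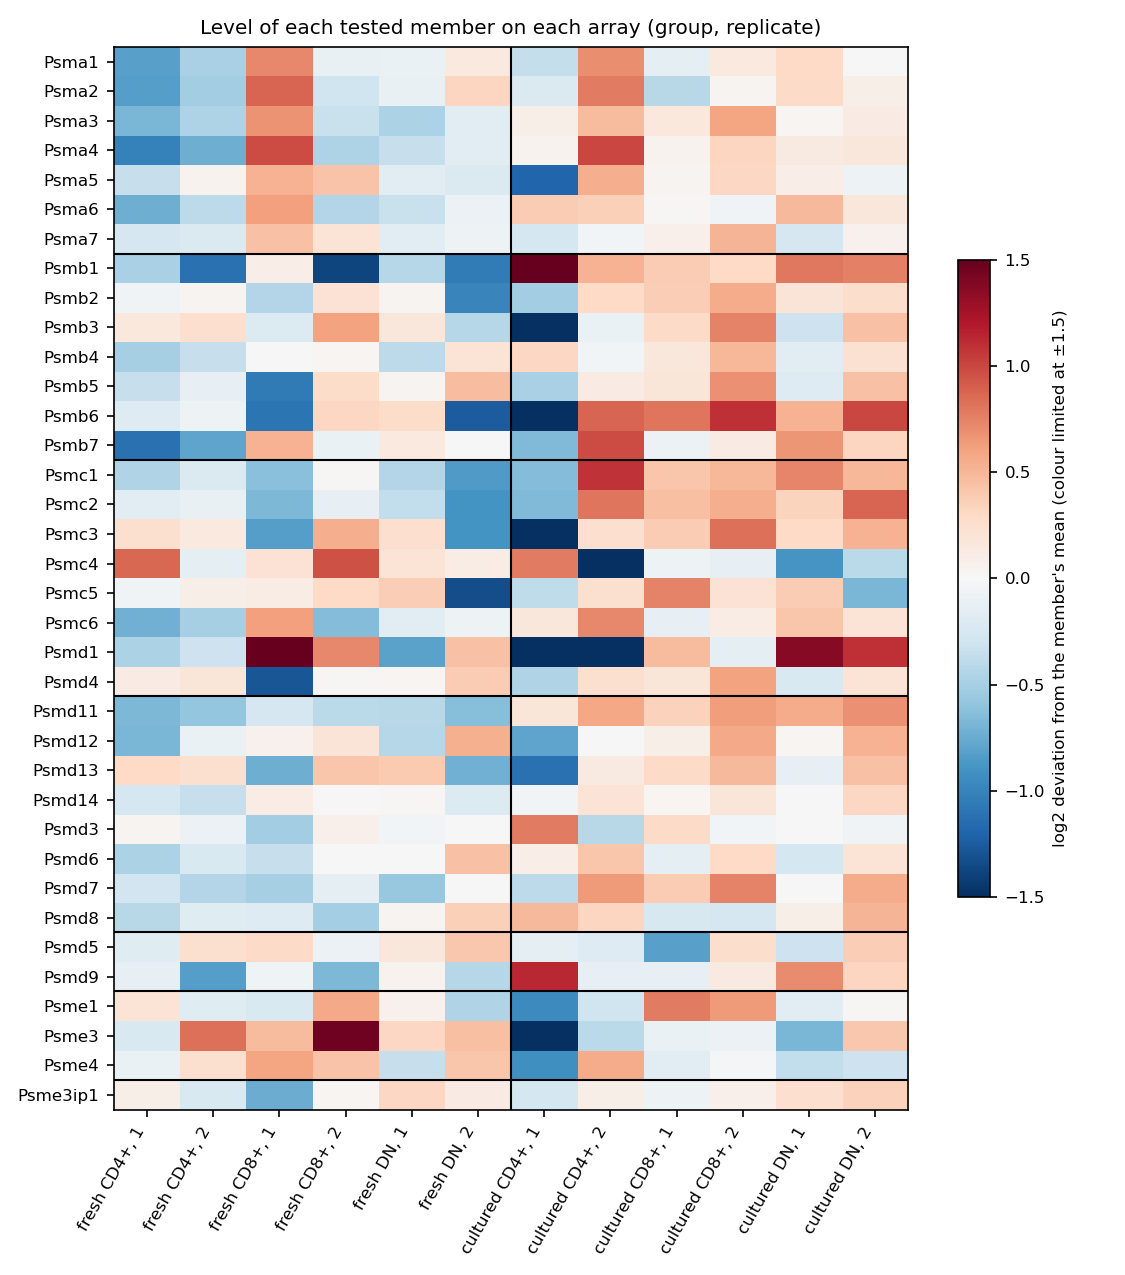
Deviation of each of the 36 tested genes (rows, grouped by class) from its own mean over the 12 arrays (columns, fresh left of the line, cultured right of it), in log2 units with colour limited at 1.5 either way. The row of Psmd11 turns from blue to red at the line, the 7 alpha rows are all red on fresh CD8+ replicate 1, and Psmb6, Psmc3 and Psmd13 are blue on fresh CD8+ replicate 1, fresh DN replicate 2 and cultured CD4+ replicate 1.

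Taken subset by subset, the culture effect asks whether each kind of dendritic cell responded to the 2 h. In CD4+ cells 2 of the 36 genes rose, Psmd11 (1.01 ± 0.26, SE) and Psmb1 (1.86 ± 0.48), each with an adjusted p of 0.0232 by limma, against 18.4% of all probe sets. The count at an unadjusted p under 0.05 was 12, against 35.7% of all. In CD8+ cells 0 were called, against 8.13% of all, with Psmd11 at 0.81 ± 0.26 (adjusted p 0.0870 by limma). At an unadjusted p under 0.05 by limma there were 3, against 23.5% of all. In DN cells 1 rose, Psmd11 (1.15 ± 0.26, adjusted p 0.0207 by limma), against 9.9% of all, and 4 had an unadjusted p under 0.05, against 26.6% of all. The estimates of Psmd11 ran from 0.81 to 1.15 over the subsets, and those of Psmb1 were 1.86, 0.98 and 1.51 in CD4+, CD8+ and DN cells. Across the 36 genes, 11 (30.6%) had a difference above 0 in all 3 subsets, against 31.7% of all probe sets, and 4 (11.1%) in 0 subsets, against 33.5%. Those 4 were Psmc4, Psmd5, Psme3 and Psme4.

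By class, the medians differed over the subsets. After culture the alpha subunits had a median difference of 0.86 in CD4+, -0.11 in CD8+ and 0.20 in DN cells, and the beta subunits 0.05, 0.57 and 0.42. The base had -0.17, 0.51 and 0.59, and the lid 0.44, 0.30 and 0.23. Among all tested probe sets the medians were -0.02, -0.04 and 0.02. Several class medians rested on the arrays of high Gapdh ratio: without them that of the alpha subunits in CD8+ cells turned to 0.11 (6 of 7 above 0, against 1 of 7 with all arrays), that of the base in CD4+ cells to 0.16, and that of the beta subunits in CD4+ cells was 0.38. Tested gene by gene as interactions, 0 of the 36 genes were called in each of the 3 comparisons of culture effects between subsets, as was 0.0% of all probe sets (limma). At an unadjusted p under 0.05 by limma there were 3 genes for CD8+ against CD4+ (Psma2, Psma4 and Psme1), against 8.52% of all probe sets. There was 1, Psmd1, for CD8+ against DN (4.06% of all) and for DN against CD4+ (2.06% of all).

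The subset calls depended on single arrays, and a fit without 1 of them leaves its group with 1 array and takes the spread from the others. The Psmd11 call in CD4+ cells was lost without either fresh CD4+ array (adjusted p 0.133 and 0.126) or cultured CD4+ replicate 2 (0.0542). That of Psmb1 was lost without either fresh CD4+ array (0.0588 and 0.165) or cultured CD4+ replicate 1 (0.141), and that of Psmd11 in DN cells without any 1 of the 4 DN arrays (0.0714 to 0.173; all by limma). Without the 3 arrays of high Gapdh ratio, 1 side of each culture effect holds a single array (cultured CD4+, fresh CD8+, cultured DN), and the spread comes from the other groups. In that fit 12 genes were called in CD4+ cells (20.2% of all probe sets), of which 11 rose (Psma1, Psma2, Psma3, Psma4, Psma6, Psmb1, Psmb7, Psmc1, Psmc2, Psmc6 and Psmd11) and Psmc4 fell. The same fit called 1 gene in CD8+ cells, Psmb1 (16.1% of all), and 3 in DN cells, Psmb1, Psmc2 and Psmd11 (13.2% of all). With the experiment number as a block, 5 genes were called in CD4+ cells (29.0% of all), Psma4, Psmb1 and Psmd11 as higher and Psmd1 and Psme3 as lower, and 2 in DN cells (16.9% of all), Psmb1 and Psmd11. Of these, Psme3 passed the filter through fresh arrays alone, which favours a fall.

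Between subsets, no proteasome gene passed the test in either state. For fresh CD8+ against fresh CD4+ cells, 0 of 36 were called as given above (1.98% of all), with 6 at an unadjusted p under 0.05 by limma (11.1% of all): the 4 alpha subunits named above, Psmb7 (1.16 ± 0.46, SE) and Psmd1. For fresh CD8+ against fresh DN cells there were 0 called (1.43% of all) and 1 at an unadjusted p under 0.05 (9.47% of all), Psmd1. For fresh DN against fresh CD4+ cells there were 0 (0.0% of all) and 1 (1.32% of all), Psmb7. After culture, CD8+ against CD4+ cells had 0 called (2.29% of all) and 4 at an unadjusted p under 0.05 (15.3% of all), among them the activator Psme1. Its intensities were 3239.5 and 2942.0 in cultured CD8+ and 972.0 and 1535.9 in cultured CD4+ cells. The difference was 1.34 ± 0.33 (SE, adjusted p 0.0709 by limma). Cultured CD8+ against DN cells had 0 called (1.3% of all) and Psme1 alone at an unadjusted p under 0.05 (10.5% of all), with 1692.9 and 1916.9 in cultured DN cells. Cultured DN against CD4+ cells had 0 called (0.0% of all) and Psmd1 at an unadjusted p under 0.05 (3.82% of all). These comparisons share their groups with each other and with the culture effects.

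Over all 36 genes, the arrays followed culture with 1 exception. The median deviation of the genes from their own means was -0.27 and -0.20 in fresh CD4+, 0.03 and 0.03 in fresh CD8+ and -0.02 and -0.08 in fresh DN cells. In cultured cells it was -0.37 and 0.28 in CD4+, 0.12 and 0.31 in CD8+ and 0.09 and 0.31 in DN cells, while that of all tested probe sets stayed between -0.04 and 0.08. Cultured CD4+ replicate 1, with a Gapdh ratio of 1.97, was thus the lowest array of all and the other 5 cultured arrays were the 5 highest. The number of genes above their own mean was 8 to 21 of 36 on the fresh arrays and 12 on cultured CD4+ replicate 1, against 21 to 31 on the other cultured arrays.

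**Figure D4:**
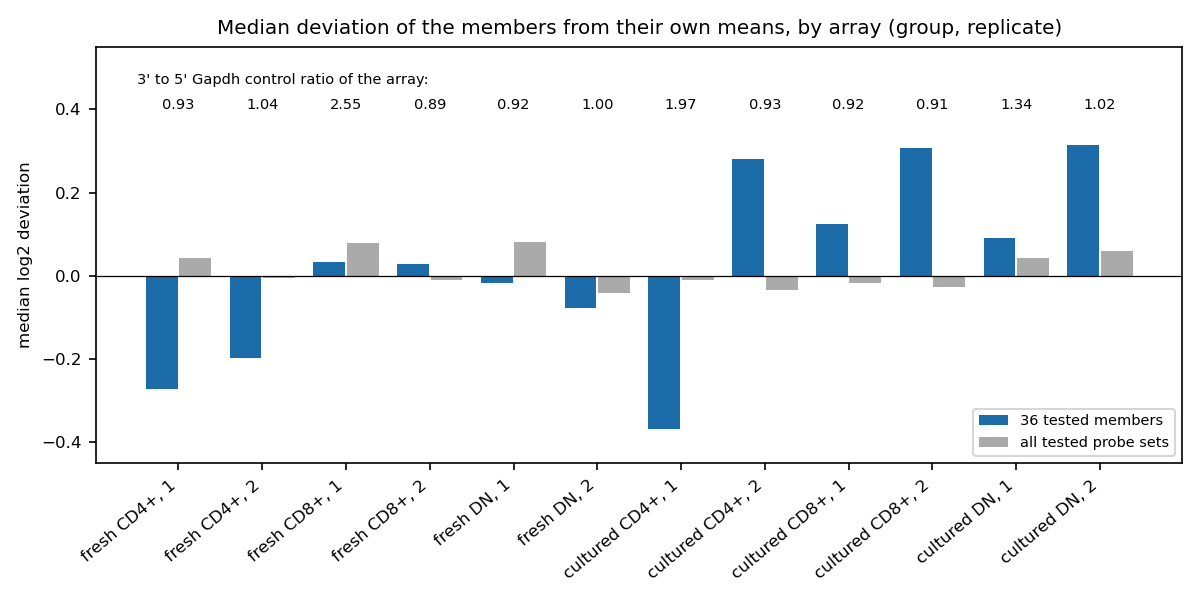
Median log2 deviation of the 36 tested proteasome genes (blue) and of all tested probe sets (grey) from their own means over the 12 arrays, by array, with the array's 3′ to 5′ Gapdh ratio printed above. The 5 cultured arrays other than CD4+ replicate 1 reach 0.09 to 0.31, and the lowest bar, -0.37, is that of cultured CD4+ replicate 1.

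Replicates of these genes differed unevenly. The share of the 36 genes whose 2 replicates differed by more than 2-fold was 5.56% in fresh CD4+, 33.3% in fresh CD8+, 16.7% in fresh DN, 47.2% in cultured CD4+, 2.78% in cultured CD8+ and 5.56% in cultured DN cells. Among all tested probe sets it was 5.89%, 24.7%, 7.73%, 36.0%, 10.8% and 14.7%. In the 2 groups with the widest spread, the genes moved in both directions. On fresh CD8+ replicate 1, 7 genes were more than 2-fold above replicate 2 (4 alpha subunits, Psmb1, Psmc6 and Psmd1) and 5 more than 2-fold below it (Psmb5, Psmb6, Psmc3, Psmd4 and Psmd13). On cultured CD4+ replicate 1, 4 were above (Psmb1, Psmc4, Psmd3 and Psmd9) and 13 below. Psmb6, Psmc3 and Psmd13, named after their values were seen, were low together on 3 arrays. Psmb6 was at 219.8 on fresh CD8+ replicate 1, 196.7 on fresh DN replicate 2 and 93.0 on cultured CD4+ replicate 1, and at 412.0 to 1014.6 on the other 9. Psmc3 was at 291.0, 276.0 and 150.4 on these arrays and Psmd13 at 216.4, 217.6 and 164.2. Psmb2, Psmc1 and Psmc2 also had their 3 lowest intensities on these arrays, and Psmc1 and Psmc2 are genes called for the mean culture effect. In the same order, Psmb2 was at 566.0, 387.1 and 536.1, Psmc1 at 98.2, 82.2 and 96.3 and Psmc2 at 444.9, 382.5 and 450.7. 2 of the arrays have a high Gapdh ratio and fresh DN replicate 2 has one of 1.00; the part of RNA integrity in this pattern was not tested.

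Of the 11 further probe sets for 7 of these genes, 5 were tested. 4 of them had the sign of the gene's main probe set, those of Psmd11, Psmb5 (0.74 against 0.25) and Psmc3 (0.17 and 0.45 against 0.18), and the 1 of Psmb1 described above had the opposite sign. The probe set of Psmd11 was the 1 called.

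Of the 3 immunoproteasome subunits, 2 fell in the mean over the subsets and 0 rose, where 22.3% and 17.0% of all probe sets did. Psmb9, which replaces Psmb6, was at 2528.4 and 2345.2 in fresh CD4+, 2530.9 and 4111.4 in fresh CD8+ and 2213.8 and 1875.3 in fresh DN cells and at 461.9 and 1107.6, 2371.7 and 2622.4, and 1166.8 and 986.9 after culture. Its cultured CD4+ and DN values lay below every fresh value, those of cultured CD8+ cells did not, and its mean culture effect was -1.02 ± 0.22 (SE, adjusted p 0.00415 by limma). Psmb10, which replaces Psmb7, fell by 0.64 ± 0.19 on the log2 scale (SE, adjusted p 0.0221 by limma), with -1.09 in CD4+ and -1.08 in DN cells but 0.26 ± 0.33 in CD8+ cells (adjusted p 0.687). Psmb8, which replaces Psmb5, had a difference of 0.11 ± 0.15 (adjusted p 0.573). The constitutive counterparts Psmb6, Psmb7 and Psmb5 were at 0.67, 0.45 and 0.25, not called. The difference between the 2 sets of subunits was not tested.

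Assembly factors and proteasome-associated proteins were mixed. Of 20 listed genes, 15 were measured and tested, 2 rose and 4 fell (median -0.33), shares near the 17.0% and 22.3% of all probe sets. The assembly chaperones Psmg2 and Psmg1 were dim, above the floor on 5 and 3 fresh arrays and below it on all 6 cultured arrays. They fell by at least 1.26-fold and 1.08-fold (adjusted p 0.00378 and 0.0244 by limma). Both passed the filter through fresh arrays alone, which favours a fall, so these p-values are no independent support for one. Ubqln2, which shuttles ubiquitylated proteins to the proteasome, fell by at least 2.27-fold (adjusted p 0.00564), and Uchl5, a deubiquitinase of the 19S cap, by at least 1.66-fold (adjusted p 0.0131). Of the ubiquitin system, 7 of 15 listed genes were tested, 2 rose and 0 fell (median 0.38), too few to set against the same background. Vcp, the ATPase that extracts ubiquitylated proteins, rose by 0.73 ± 0.13 (SE, adjusted p 0.00174), with 1115.9 to 1445.5 on fresh and 1679.3 to 2587.1 on cultured arrays. Ube2k, a ubiquitin-conjugating enzyme, rose by 0.60 ± 0.17 (adjusted p 0.0171).

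NRF1 is the known link from proteasome load to subunit genes. The list set beside the proteasome genes also holds NRF2, partners of the factors and NRF2 targets, so its changes are not a measure of proteasome load. Of 15 listed genes 13 were measured and 10 tested, 9 rose and 0 fell, with a median of 2.15, against 17.0% and 22.3% of all probe sets. Txnrd1, which encodes thioredoxin reductase, had 218.3 to 312.6 on the fresh and 3548.0 to 4124.7 on the cultured arrays, a difference of 3.86 ± 0.14 (SE, adjusted p 3.61e-08 by limma). Sqstm1, an autophagy receptor and NRF2 target, rose by 3.63 ± 0.13 (adjusted p 3.61e-08), and Nfe2l2 itself by 2.40 ± 0.20 (adjusted p 1.08e-05). Mafg, a partner of both factors on DNA, rose by at least 3.55-fold (adjusted p 0.000104). Nfe2l1, which encodes NRF1, the factor known for inducing subunit genes, had a difference of 0.30 ± 0.20 (adjusted p 0.228). The 5 genes whose promoter window holds TGACNNNGC had differences of 0.25 (Psmb5), 0.67 (Psmb6), 0.50 (Psmc6), 0.69 (Psmd9) and 0.14 (Psmd12). With all arrays 0 of them were called without the block, and Psmd9 was called with it. Without the 3 arrays of high Gapdh ratio their differences were 0.23, 1.04, 0.77, 0.51 and 0.33 in the same order. Psmb6 and Psmc6 are among the genes named above as rising in that fit, in which some groups hold a single array. Of the 5 genes called with all arrays and no block, Psmd11 has neither motif in its window and Psmc1 and Psmc2 have CCAAT. Psmb1 and Psmd7 had no window to search. The part of NRF1 and NRF2 in the culture effect was not tested.

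**Figure D5:**
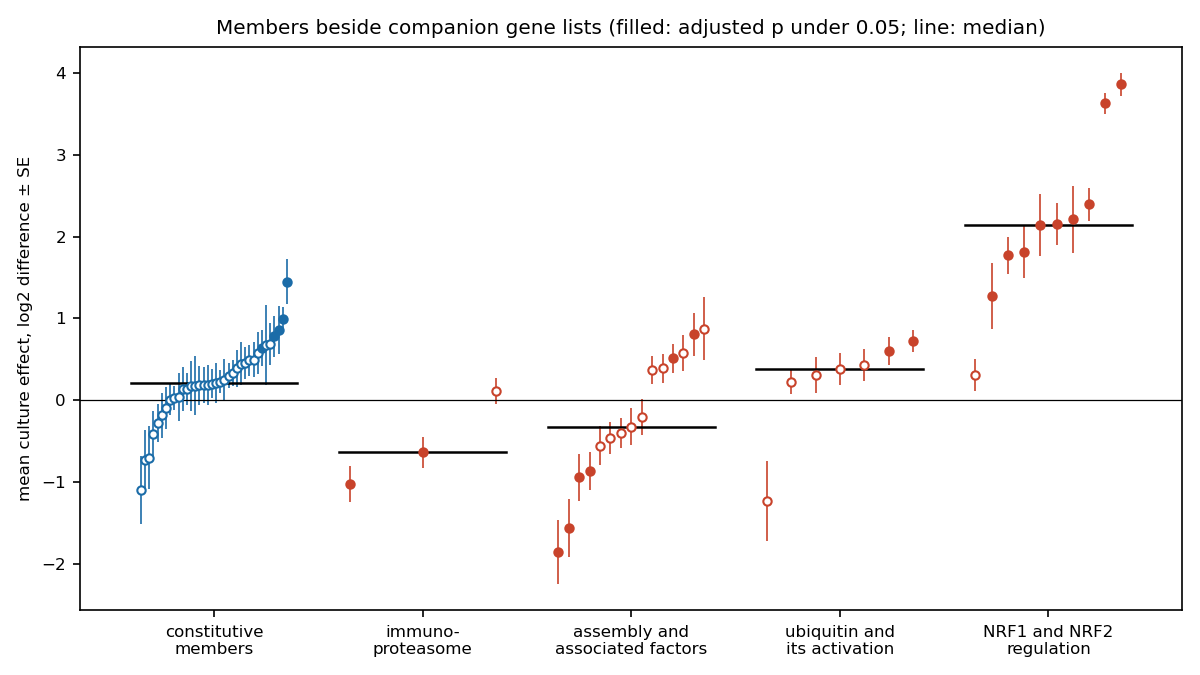
Mean culture effect over the 3 subsets (y axis, log2 difference ± SE, cultured minus fresh) of the 36 constitutive proteasome genes and of the genes of 4 related lists, 1 point per gene, filled where the adjusted p is under 0.05, with a line at each median. The proteasome genes centre on 0.21, and the NRF1 and NRF2 list on 2.15.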

How the data were processed

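RNA was measured on 12 oligonucleotide arrays. The deposited intensities are in Average Difference units, globally scaled by the authors per the labels; the software is not given in the sources used here, and 0 columns of per-sample values were left unused. Of 12488 probe sets, 66 controls were left out. Names came from the platform annotation, with 1 symbol for 10833 probe sets. The RefSeq gene table held all 39 Entrez identifiers and left every symbol as it was.

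Each intensity x was transformed to log2((sqrt(x² + c²) + x) / 2), a generalised log2, with c of 45.69 (root mean square of the negative values, median of the arrays) and a floor of 2 times c. Differences on it understate changes of dim probe sets, and values below 0 can inflate them. Where both arrays of a group are below the floor, its level there is a bound; "at least N-fold" sets the brighter side's mean against a dimmer side raised to the floor in such groups. The root mean square of the negative values was 107.88 on cultured CD4+ replicate 1, above the floor, and 26.18 to 82.49 on the other arrays. Intensities just over the floor on that array, such as 93.0 for Psmb6 and 96.3 for Psmc1, lie below this value. The number of arrays, 2 per group, limits the precision.

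All 12 arrays were fitted with limma 3.58.1 (R 4.3.3) (6 residual and a median of 5.09 prior degrees of freedom, intensity trend, robust), tested on simulated data, with 13 contrasts. Python 3.11.15, pandas 2.3.3, numpy 2.4.6 and matplotlib 3.10.9 made tables and figures. Intensities of all arrays were printed for genes called in any contrast and for the 2 of lowest p per class, and up to 4 called genes per related list were named. The members and lists were chosen with earlier results of these data known. Deviations of same-numbered arrays correlated at 0.11 to 0.44 over all 15 pairs of groups, and the labels call the number an experiment. The numbers were therefore taken to pair the arrays, and the block is an alternative. All 3 arrays of high Gapdh ratio are replicate 1. The correlation was highest, 0.44, for fresh CD8+ with cultured CD4+ cells, which both hold such an array, and 0.40 for fresh CD4+ with fresh DN cells, which hold none. The part of the Gapdh ratio in these correlations was not tested. Other alternatives were the offset, a hard floor, the filter, quantile normalization, only the groups compared, all probe sets of a gene, the arrays of high Gapdh ratio (over 1.2), and each array left out in turn.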

Additional observations from a re-analysis of the deposited data

How the results depend on the processing

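The mean culture effect was called for 5 genes; this became 3 without a filter, 13 without the 3 arrays of high Gapdh ratio, and 2 to 9 when 1 array was left out. It was 2 without either fresh CD4+ or either cultured CD8+ array, 3 without either fresh DN array or cultured DN replicate 2, 8 without fresh CD8+ replicate 1 and 9 without cultured CD4+ replicate 1. Psmd11 and Psmb1 kept their call in all 12 of these fits. The culture effect in CD4+ cells (2 genes) gave 5 with the replicate block, 0 with only the groups compared, 0 with the mean of all probe sets, 12 without the Gapdh arrays and 0 to 8 with 1 array left out; that in CD8+ cells (0) gave 1 without the Gapdh arrays and 0 to 1 with 1 array left out; that in DN cells (1) gave 2 with the replicate block, 5 with only the groups compared, 0 with the mean of all probe sets, 3 without the Gapdh arrays and 0 to 4 with 1 array left out. Between subsets, cultured CD8+ against CD4+ gave 1 at 0.5 times the offset and 0 to 6 with 1 array left out (6 without cultured CD4+ replicate 2), cultured DN against CD4+ 0 to 2 (2 without the same array) and fresh CD8+ against CD4+ 0 to 1 (1 without fresh CD8+ replicate 2). The block gave 7 genes for the mean culture effect (6 higher, 1 lower). Besides this count it moved those of the culture effects in CD4+ and DN cells given above, and it left the rest as they were. The difference of Psmb4 reversed to -0.21 with the mean of all probe sets. Causes were not tested. Counts under other settings stayed within 1.5 times the main ones. Signal over background limits Psmc1, Psmc4, Psmd1, Psmd12, Psme3 and Psme4, which were below the floor on at least 1 array. No outlier test was run, because groups of 2 arrays allow none.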
